A study of Mus musculus with 13 samples.

Results

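Of the 40 genes described here, 20 act in the approach to and passage through S phase and 20 in mitosis, and all were followed in 4T1 mammary tumours with and without targeting of pericytes. They were taken by name, as the probes annotated to the listed symbols with a detection p below 0.05 on at least 1 array. On the 9 arrays of the antibody experiment 35 of the 40 passed, 20 in the S phase set and 15 in the mitotic set, out of 12990 genes tested. *Mki67* and *Ccnb1* had no annotated probe, and *Ccnb2*, *Bub1* and *Kif20a* had probes that were detected on no array. On the 4 arrays of the ablation experiment 30 passed, 18 and 12 by set, out of 9714 genes. There *Npat*, *Ccnb1*, *Aurkb* and *Mki67* had no annotated probe, and *Dtl*, *Ccna2*, *Ccnb2*, *Bub1*, *Ube2c* and *Kif20a* were detected on none. Both platforms together hold 13422 genes, the 35 members among them, and 27 of the 30 members that passed on both were represented by the same probe.

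RNA came from tumours of 4T1, a mouse mammary carcinoma line grown orthotopically. Hosts called PDGFRb-TK carry a viral thymidine kinase driven by the Pdgfrb promoter, which is active chiefly in pericytes and also in other mesenchymal cells. Ganciclovir (GCV), which the labels record for every sample including wild-type hosts, then kills the dividing cells among those that make the enzyme. The antibody experiment had 3 groups of 3 arrays, labelled here TK/anti-Ang2 for PDGFRb-TK hosts under an antibody against angiopoietin-2, TK/IgG for the same hosts under control IgG, and WT/IgG for wild-type hosts under control IgG. The ablation experiment had 1 array each for early ablation, early control, late ablation and late control. Its controls carry the genotype PDGFRb-TK in one label field and WT in another, so their genotype is uncertain here. A further label field marks every sample, WT/IgG included, as carrying the transgene, so the groups were taken from the sample titles. The tumour cells themselves carry no transgene by this design, and the labels do not say whether replicates were separate animals. Every p-value therefore reflects sample-to-sample spread that could be technical.

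A dividing cell passes from G1 through S phase, where DNA is copied, to G2 and mitosis. Cyclins D and E with their kinases inactivate the retinoblastoma protein and free E2F factors, which switch on genes for replication origins, the helicase and nucleotide supply. Later, FOXM1, B-MYB and the MuvB complex raise the genes for mitotic kinases, the spindle checkpoint and chromosome segregation, and in resting cells the DREAM complex holds both waves down. In a tumour such genes are read as a measure of proliferation.

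The promoters of both sets are shown first because E2F and CHR elements are known from genes of both waves, although the sets were made by role and not by promoter. In RefSeq windows of mouse GRCm38.p6, from 250 bases before to 50 after the annotated start, 17 of 20 S phase genes and 15 of 20 mitotic genes had an entry. *Ccnd1*, *Ccne2*, *Mcm4*, *Foxm1*, *Ccna2*, *Aurkb*, *Kif20a* and *Tpx2* had none in the table. Both strands were searched for the cell cycle homology region (CHR, as TTTGAA or TTCGAA), which MuvB complexes bind, for the E2F words TTTCGCGC, TTTGGCGC, TTTCCCGC and TTTGCCGC, and for CCAAT, the word bound by NF-Y. A CHR word lay in the windows of 12 of the 15 mitotic genes (80%) and 3 of the 17 S phase genes (17.6%), beside 21.7% of all 27025 genes and 19.2% of all 32851 windows. An E2F word lay in those of 1 mitotic gene (6.67%) and 7 S phase genes (41.2%), beside 2.6% of genes and 2.26% of windows. CCAAT was found in both sets, in 13 mitotic genes (86.7%) and 11 S phase genes (64.7%), beside 41.1% of genes and 37.4% of windows. These matches describe letters in the windows and show neither binding nor a cause of the values below.

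In GRCm38.p6 and 5′ to 3′ on the strand of the gene, the windows of 4 mitotic and 4 S phase genes were as follows.
Plk1 (chr7:122159185-122159484, plus strand): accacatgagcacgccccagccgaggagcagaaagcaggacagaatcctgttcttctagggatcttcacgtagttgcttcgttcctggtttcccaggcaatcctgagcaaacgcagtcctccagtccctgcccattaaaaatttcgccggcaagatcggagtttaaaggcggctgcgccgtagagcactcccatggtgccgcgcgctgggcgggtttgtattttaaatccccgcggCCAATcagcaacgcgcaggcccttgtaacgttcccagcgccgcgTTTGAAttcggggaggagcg
Cdc20 (chr4:118437294-118437593, minus strand): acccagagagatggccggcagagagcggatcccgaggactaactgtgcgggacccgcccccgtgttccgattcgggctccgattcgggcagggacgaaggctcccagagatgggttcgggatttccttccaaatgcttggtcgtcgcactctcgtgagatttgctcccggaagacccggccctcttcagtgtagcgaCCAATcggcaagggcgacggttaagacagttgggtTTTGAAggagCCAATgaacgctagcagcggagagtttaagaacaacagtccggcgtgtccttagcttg
Top2a (chr11:99024140-99024439, minus strand): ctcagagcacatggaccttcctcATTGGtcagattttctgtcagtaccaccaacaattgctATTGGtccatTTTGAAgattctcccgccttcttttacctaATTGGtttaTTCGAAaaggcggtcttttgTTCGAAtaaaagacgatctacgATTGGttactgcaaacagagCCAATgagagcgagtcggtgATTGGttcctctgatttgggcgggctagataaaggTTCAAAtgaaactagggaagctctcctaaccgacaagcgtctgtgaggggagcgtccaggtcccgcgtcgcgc
Cdk1 (chr10:69352863-69353162, minus strand): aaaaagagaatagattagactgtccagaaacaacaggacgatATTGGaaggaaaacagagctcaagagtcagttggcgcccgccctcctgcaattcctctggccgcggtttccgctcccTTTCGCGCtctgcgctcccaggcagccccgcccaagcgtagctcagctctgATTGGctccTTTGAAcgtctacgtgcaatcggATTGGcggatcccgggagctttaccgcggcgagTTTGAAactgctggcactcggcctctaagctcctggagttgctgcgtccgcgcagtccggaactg
Mcm5 (chr8:75109259-75109558, plus strand): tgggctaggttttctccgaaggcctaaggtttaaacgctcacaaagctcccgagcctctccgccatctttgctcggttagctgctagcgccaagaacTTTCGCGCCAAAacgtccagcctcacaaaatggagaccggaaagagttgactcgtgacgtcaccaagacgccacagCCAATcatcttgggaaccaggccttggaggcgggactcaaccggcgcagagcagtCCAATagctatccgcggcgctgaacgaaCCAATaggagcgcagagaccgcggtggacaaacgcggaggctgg
Mcm6 (chr1:128359656-128359955, minus strand): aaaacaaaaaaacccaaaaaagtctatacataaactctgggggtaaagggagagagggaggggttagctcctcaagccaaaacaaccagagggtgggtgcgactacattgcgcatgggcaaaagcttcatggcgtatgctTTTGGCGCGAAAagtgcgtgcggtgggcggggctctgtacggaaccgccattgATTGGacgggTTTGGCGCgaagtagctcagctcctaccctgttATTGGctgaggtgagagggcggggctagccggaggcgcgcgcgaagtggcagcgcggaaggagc
Dtl (chr1:191575495-191575794, minus strand): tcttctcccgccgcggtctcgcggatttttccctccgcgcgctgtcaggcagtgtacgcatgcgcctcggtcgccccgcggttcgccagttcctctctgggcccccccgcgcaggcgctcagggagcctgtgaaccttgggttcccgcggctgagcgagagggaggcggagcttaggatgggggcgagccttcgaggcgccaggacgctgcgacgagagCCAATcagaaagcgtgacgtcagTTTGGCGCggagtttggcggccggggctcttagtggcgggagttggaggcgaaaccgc
Npat (chr9:53536797-53537096, plus strand): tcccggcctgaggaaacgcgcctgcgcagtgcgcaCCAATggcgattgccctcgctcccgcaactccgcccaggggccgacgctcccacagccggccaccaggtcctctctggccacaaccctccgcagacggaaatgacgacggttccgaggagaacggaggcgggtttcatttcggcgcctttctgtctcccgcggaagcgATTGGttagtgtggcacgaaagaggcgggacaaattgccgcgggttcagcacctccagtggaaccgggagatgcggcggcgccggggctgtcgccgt

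In these 8 windows capitals mark the searched words on either strand, and the start lies at the base after the first 250. *Plk1*, *Cdc20*, *Top2a* and *Cdk1* were chosen as mitotic genes with a CHR word. Of the 15 mitotic genes with a window, *Cdk1* was the only one that also held a searched E2F word. The CHR words of *Cdk1* begin 71 and 15 bases before the start, that of *Cdc20* 18 bases before it and that of *Plk1* 30 bases after it. *Mcm5*, *Mcm6* and *Dtl* stand for the S phase genes with an E2F word. In *Mcm5* and *Mcm6* a pair of E2F words on opposite strands overlaps and is printed as 1 run of capitals. *Npat* is shown because it had the lowest differences of the S phase set in both TK/anti-Ang2 comparisons, and its window held CCAAT words and neither of the other elements.

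Between 40.6% and 43.2% of probes were detected per array on the 9 arrays, with median probe signals of 119.1 to 134.7. Epithelial content was checked with simple epithelial genes, which cannot identify the 4T1 line itself. *Krt8* had a log2 signal of 13.18 to 13.90 on the 9 arrays, *Krt18* 11.85 to 12.70 and *Cdh1* 8.78 to 10.07, while *Epcam* was not detected on any of them. TK/anti-Ang2 replicate 2 stood apart, with a median correlation of 0.941 with the other arrays across genes, against 0.973 to 0.981 for the rest. Its mean log2 signal was 9.19 for 6 of 10 adipocyte markers (5.37 to 7.85 elsewhere), 11.97 for 8 of 10 skin and hair markers (6.01 to 9.03), 9.67 for 7 of 8 mast cell markers (5.59 to 7.36) and 10.39 for 10 of 10 fibroblast markers (8.28 to 9.77). Among the defining adipocyte genes, *Fabp4* and *Plin1* were detected on no array. The hair keratin genes *Krt27* and *Krt71* were not detected either, so the skin and hair mean rests on epidermal genes. The part of such cells in the results below was not tested. Set medians without this array are given below for both TK/anti-Ang2 comparisons. The mean of 12 of 12 pericyte and mural cell markers was 6.47, 6.62 and 6.67 on the TK/anti-Ang2 arrays, 6.36, 6.34 and 6.71 on the TK/IgG arrays and 6.72, 6.45 and 6.86 on the WT/IgG arrays. The groups overlapped in this mean, in which *Des* alone ranged from 5.84 to 11.24. *Pdgfrb*, whose promoter drives the transgene, was at 5.59 to 6.48 in both PDGFRb-TK groups and at 6.92 to 7.33 in WT/IgG tumours. The cause of this difference was not tested.

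In the antibody experiment no cell cycle gene passed an adjusted p of 0.05, nor did any other gene. limma called 0 of 12990 genes in each of the 3 comparisons, with 425 (3.27%), 885 (6.81%) and 386 (2.97%) at an unadjusted p below 0.05 for TK/anti-Ang2 minus TK/IgG, TK/anti-Ang2 minus WT/IgG and TK/IgG minus WT/IgG. These comparisons share arrays in pairs, so they are not independent. Of the 35 members, 3 had an unadjusted p below 0.05 in the first comparison, 1 higher (*Dtl*, beside 1.36% of all genes) and 2 lower (*Npat* and *Pcna*, beside 1.91%). In the second there were 2, *Dtl* higher (beside 2.75%) and *Npat* lower (beside 4.06%), and in the third 0. Counts this small, beside such backgrounds, are no result about the members as a group.

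As a set, the mitotic genes leaned upward in TK/anti-Ang2 against TK/IgG tumours, 14 of 15 above 0 at a median log2 difference of 0.20, beside 47.8% of all genes and a median over all genes of -0.01. The S phase set had a median of 0.06, with 12 of 20 above 0. Against WT/IgG tumours the TK/anti-Ang2 medians were 0.20 for the mitotic set (9 of 15 above 0) and 0.00 for the S phase set (10 of 20), beside 46.1% of all genes and a median of -0.02. For TK/IgG minus WT/IgG they were -0.01 (7 of 15) and -0.09 (6 of 20), beside 47.1% and a median of -0.01. In whole-tumour RNA, fewer dividing cells and less RNA per cell cannot be told apart.

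Markers of other cell types moved in the same comparisons, and their part in the members' values was not tested. The mean log2 signal of 12 of 12 endothelial markers was 7.41, 7.30 and 7.35 on the TK/anti-Ang2 arrays, 7.76, 7.92 and 8.37 on the TK/IgG arrays and 8.02, 7.44 and 8.39 on the WT/IgG arrays, so that the TK/anti-Ang2 arrays were the lowest. That of 5 of 6 erythroid markers was 9.18, 9.91 and 7.98 in TK/anti-Ang2 tumours, 11.03, 9.51 and 11.20 in TK/IgG tumours and 8.76, 10.67 and 10.06 in WT/IgG tumours, with overlap. That of the 10 fibroblast markers was 8.55, 10.39 and 8.28 in TK/anti-Ang2 tumours, 8.66, 8.29 and 8.65 in TK/IgG tumours and 9.77, 8.91 and 9.28 in WT/IgG tumours, and TK/anti-Ang2 replicate 2 alone lay above the rest. The median log2 difference between TK/anti-Ang2 and TK/IgG was -0.73 for endothelial markers (11 of 12 below 0, 5 of them at an unadjusted p below 0.05, beside 1.91% of all genes), -1.75 for erythroid markers (5 of 5 below 0, 3 at that p) and 0.52 for fibroblast markers (10 of 10 above 0, 0 at that p). Between TK/anti-Ang2 and WT/IgG these medians were -0.62 (12 of 12 below 0, 4 at that p, beside 4.06% of all genes), -0.79 (5 of 5 below 0, 1 at that p) and -0.24 (7 of 10 below 0, 0 at that p). Between TK/IgG and WT/IgG the fibroblast median was -0.89 (10 of 10 below 0, 3 at that p, beside 1.72% of all genes), and those of endothelial and erythroid markers were 0.03 and 0.91 with 0 at that p. For the 12 pericyte and mural cell markers the TK/IgG minus WT/IgG median was -0.22 (9 of 12 below 0, 2 at that p). Their TK/anti-Ang2 minus WT/IgG median was -0.19 (8 of 12 below 0), with 1 lower and 1 higher at that p. Against TK/IgG their TK/anti-Ang2 median was 0.03 (7 of 12 above 0), also with 1 each way at that p. The TK/anti-Ang2 minus TK/IgG median was 1.42 for adipocyte (6 of 6 above 0), 1.03 for skin and hair (8 of 8) and 1.24 for mast cell markers (6 of 7), with 0 at that p. Against WT/IgG these were 1.77 (6 of 6), 1.36 (8 of 8) and 1.63 (6 of 7), with 1 higher at that p in each, beside 2.75% of all genes. TK/anti-Ang2 replicate 2 had the highest mean of all 3 lists. No marker passed an adjusted p of 0.05.

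The lean against TK/IgG tumours did not hold without 1 array. Without TK/IgG replicate 2 the mitotic median was -0.02 with 7 of 15 genes above 0, and the S phase median -0.14 with 6 of 20. The same omission took TK/IgG minus WT/IgG to 0.22 with 12 of 15 for the mitotic set, and to 0.13 with 13 of 20 for the S phase set. Other omissions moved the values in the same family. TK/anti-Ang2 minus TK/IgG was at 0.38 for the mitotic set without TK/IgG replicate 1, and at 0.33 (14 of 15) for the mitotic and 0.16 (16 of 20) for the S phase set without TK/anti-Ang2 replicate 2. Without TK/anti-Ang2 replicate 1 it was at 0.08 for the mitotic set and at -0.09 for the S phase set, with 7 of 20 S phase genes above 0. Against WT/IgG the mitotic median was 0.04 without TK/anti-Ang2 replicate 1. Without TK/anti-Ang2 replicate 2 it was 0.32 (12 of 15 above 0) and the S phase median 0.09 (11 of 20), the highest of a range that began at -0.15 over all single omissions. For TK/IgG minus WT/IgG the mitotic median was -0.23 without TK/IgG replicate 1, and 12 of 20 S phase genes were above 0 without WT/IgG replicate 2.

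**Figure D1:**
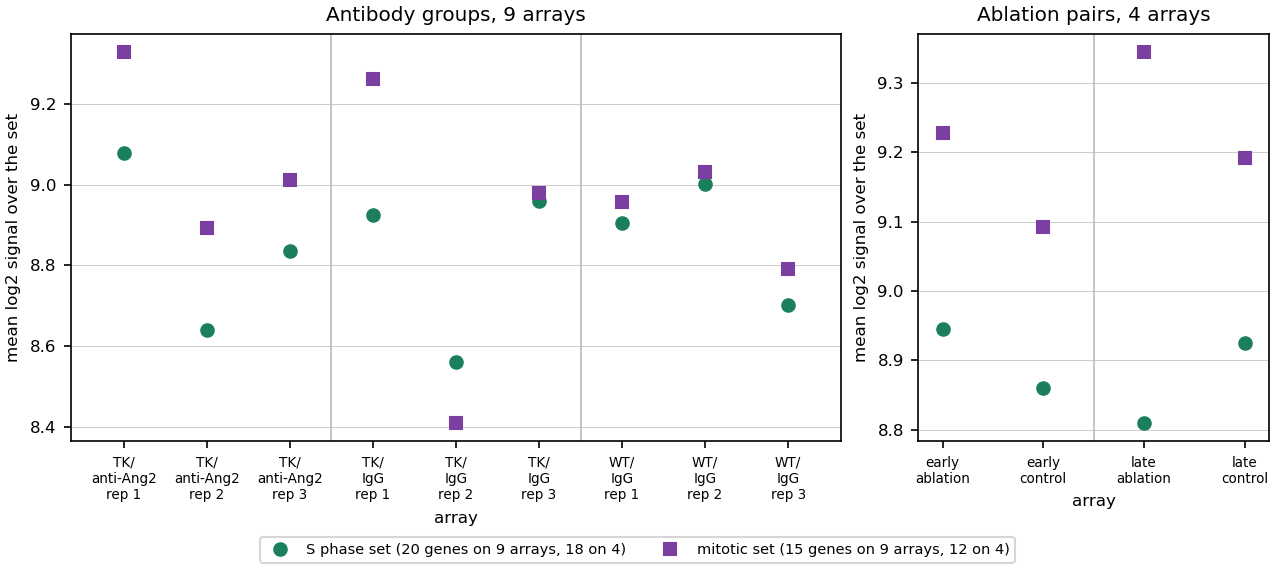
Mean log2 signal of the S phase set (circles) and the mitotic set (squares) on each array, for the 9 arrays of the antibody experiment and the 4 arrays of the ablation experiment. The lowest squares and circles of the left panel are those of TK/IgG replicate 2 (8.41 and 8.56) and the highest those of TK/anti-Ang2 replicate 1 (9.33 and 9.08), and the right panel shows the sets farthest apart in late ablation. Probes differ in brightness, so the height of one set against the other is not a comparison of expression.

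Set means show how far single arrays reached. The mean log2 signal of the mitotic set was 9.33, 8.89 and 9.01 on the TK/anti-Ang2 arrays, 9.26, 8.41 and 8.98 on the TK/IgG arrays and 8.96, 9.03 and 8.79 on the WT/IgG arrays. That of the S phase set was 9.08, 8.64 and 8.84 in TK/anti-Ang2 tumours, 8.92, 8.56 and 8.96 in TK/IgG tumours and 8.91, 9.002 and 8.70 in WT/IgG tumours. In both sets the 3 groups overlapped, and the array-to-array range was 0.92 for the mitotic and 0.52 for the S phase mean. The S phase mean minus the mitotic mean was -0.25, -0.25 and -0.17 in TK/anti-Ang2 tumours, -0.34, 0.15 and -0.02 in TK/IgG tumours and -0.05, -0.03 and -0.09 in WT/IgG tumours. The mitotic set thus stood relatively higher on all TK/anti-Ang2 than on all WT/IgG arrays, while the TK/IgG arrays lay beyond both groups, replicate 1 on the side of the mitotic set and replicates 2 and 3 on that of the S phase set.

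Individual members followed the same few arrays. TK/IgG replicate 2 was the lowest of the 9 arrays for 19 of 35 members (54.3%) and for 9.78% of all genes, among them 12 of the 15 mitotic and 7 of the 20 S phase genes. TK/anti-Ang2 replicate 1 was the highest for 14 members (40%) and for 10.3% of all genes, and WT/IgG replicate 2 for 10 members (28.6%) and 16.04% of all genes. TK/anti-Ang2 replicate 2 was the lowest for 8 members (22.9%), all in the S phase set, and for 21.7% of all genes, a similar share. The first 2 counts were 19 to 21 and 14 to 17 over 3 other ways of processing and, for each count, 3 omissions of a single array. The remaining omissions were not counted, and these checks were added after seeing the data. On TK/IgG replicate 2 the detected share (40.8%), the median correlation with other arrays (0.978) and the mean of 9 of 10 tumour epithelial markers (9.69, against 9.29 to 10.25 over all arrays) lay within the range of the rest. Other markers set it apart within its group, since its mean was 7.81 for adipocyte markers (5.37 and 6.14 on the other TK/IgG arrays), 7.85 for neutrophil markers (9.66 and 9.07) and 9.51 for erythroid markers (11.03 and 11.20), and the pericyte and mural cell mean of 6.34 was the lowest of the 9 arrays. Their part in its low cell cycle values was not tested. In the labels its sample number is far from those of the other arrays, and what the numbers mean is not stated. On TK/anti-Ang2 replicate 1 the epithelial mean was the highest of the 9, and its part in the result was not tested. The median SD within groups was 0.35 for mitotic genes, 0.29 for S phase genes and 0.26 for all genes on the log2 scale.

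**Figure D2:**
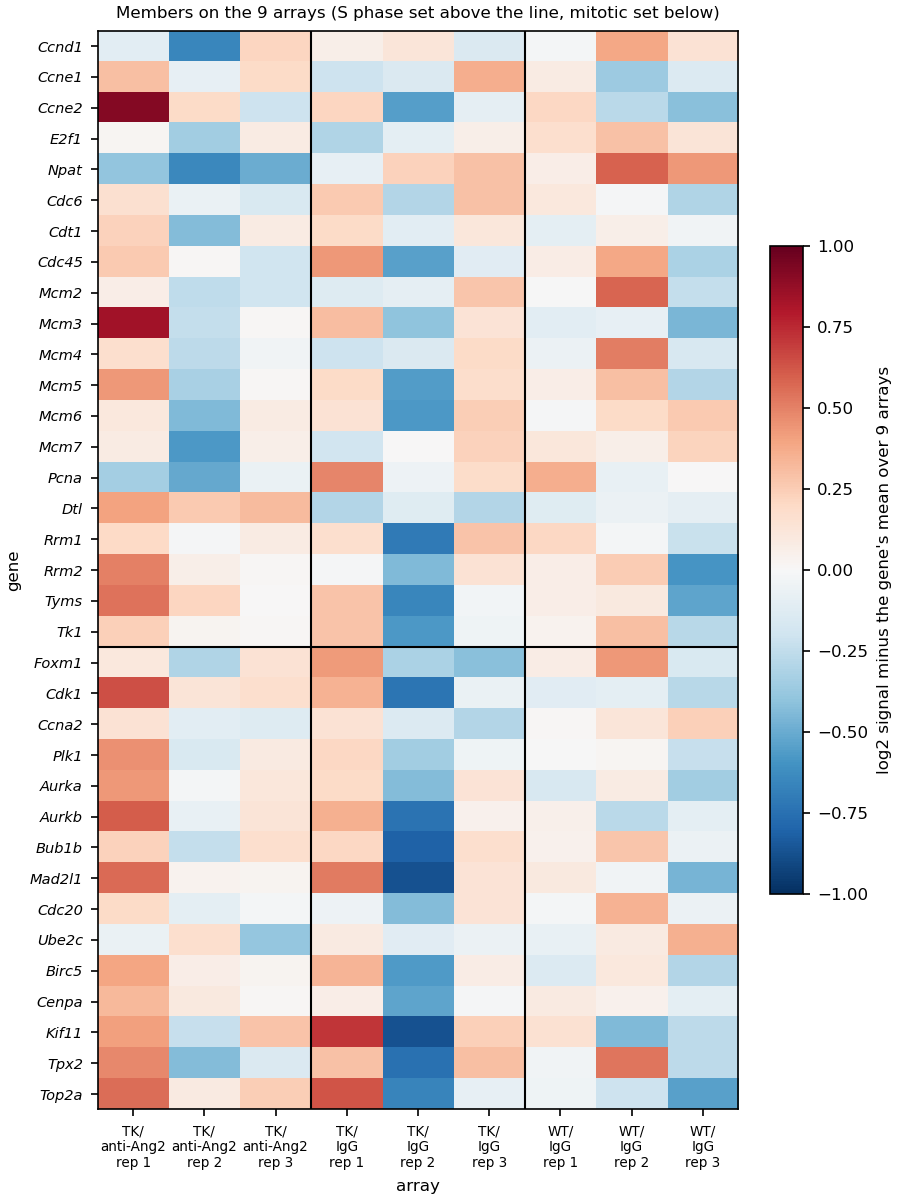
Log2 signal of each of the 35 members on the 9 arrays, minus the gene's own mean over the 9 arrays (red above it, blue below it). The blue column of TK/IgG replicate 2 holds the lowest array of 19 members, and the red column of TK/anti-Ang2 replicate 1 the highest of 14.

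Among the regulators of the G1 to S transition, the D and E cyclins showed no common direction. *Ccnd1*, the cyclin D1 gene that links growth signals to the retinoblastoma protein, had a log2 signal of 13.61, 13.06 and 13.93 in TK/anti-Ang2 tumours, 13.77, 13.84 and 13.57 in TK/IgG tumours and 13.69, 14.10 and 13.86 in WT/IgG tumours. *Ccne1*, a cyclin E gene, was at 6.11, 5.72 and 5.995 in TK/anti-Ang2 tumours, 5.59, 5.66 and 6.16 in TK/IgG tumours and 5.89, 5.44 and 5.67 in WT/IgG tumours. *Ccne2*, its paralogue, was at 7.01, 6.28 and 5.88 in TK/anti-Ang2 tumours, 6.31, 5.54 and 5.996 in TK/IgG tumours and 6.30, 5.82 and 5.67 in WT/IgG tumours. In each of the 3 genes the groups overlapped, and *Ccne2* reached its highest value on TK/anti-Ang2 replicate 1. Between TK/anti-Ang2 and WT/IgG tumours *Ccnd1* differed by -0.35, *Ccne1* by 0.28 and *Ccne2* by 0.46, with limma adjusted p of 0.743, 0.760 and 0.746.

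*E2f1*, the activator of S phase genes, was lower on every array of both PDGFRb-TK groups than on any WT/IgG array. Its log2 signal was 9.97, 9.60 and 10.03 in TK/anti-Ang2 tumours, 9.66, 9.86 and 10.01 in TK/IgG tumours and 10.12, 10.24 and 10.08 in WT/IgG tumours. It differed by -0.28 (SE 0.17) for TK/anti-Ang2 and by -0.31 (SE 0.17) for TK/IgG against WT/IgG, with limma adjusted p of 0.740 and 0.9997. Non-overlap toward lower values was seen for 7.27% of all genes in the first of these comparisons and 5.1% in the second, and for 2 and 1 of the 35 members. In TK/IgG against WT/IgG no member was non-overlapping on the higher side, as 3.53% of all genes were.

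*Npat*, which activates replication-dependent histone genes at S phase entry, was detected on all 6 IgG arrays and on none of the TK/anti-Ang2 arrays. It had 4.85, 4.60 and 4.75 in TK/anti-Ang2 tumours, 5.16, 5.48 and 5.54 in TK/IgG tumours and 5.31, 5.84 and 5.68 in WT/IgG tumours, and the TK/anti-Ang2 values lay below all others. The fitted difference was -0.66 (SE 0.18, unadjusted p = 0.00544, limma adjusted p = 0.987) against TK/IgG and -0.88 (SE 0.18, unadjusted p = 0.000905, limma adjusted p = 0.712) against WT/IgG. Since the gene was not well above background in TK/anti-Ang2 tumours, its signal there was at least 1.25-fold lower than in TK/IgG and at least 1.45-fold lower than in WT/IgG tumours. Such bounds set the mean of the bright group against, on each dim array, the lowest signal of any detected probe or the probe's own signal if that was higher. They make no allowance for the error of the group means and hold for the main processing only. Under other processing the fitted *Npat* difference was as small as -0.19 against TK/IgG and -0.25 against WT/IgG. *Npat* passed the detection filter only through the groups where it was high.

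Among genes of origin licensing and the replication fork, the groups overlapped for every helicase subunit. *Mcm2*, a subunit of the MCM helicase, had 9.49, 9.16 and 9.21 in TK/anti-Ang2 tumours, 9.29, 9.32 and 9.69 in TK/IgG tumours and 9.41, 9.995 and 9.18 in WT/IgG tumours. *Mcm3*, another subunit, had 8.54, 7.46 and 7.72 in TK/anti-Ang2 tumours, 8.01, 7.30 and 7.84 in TK/IgG tumours and 7.60, 7.62 and 7.25 in WT/IgG tumours. *Mcm5* had 11.58, 10.82 and 11.15 in TK/anti-Ang2 tumours, 11.33, 10.58 and 11.32 in TK/IgG tumours and 11.21, 11.45 and 10.85 in WT/IgG tumours. The groups overlapped in each, *Mcm3* and *Mcm5* peaked on TK/anti-Ang2 replicate 1 and *Mcm2* on WT/IgG replicate 2. The loading factor gene *Cdc6* was at 8.07, 7.85 and 7.76 in TK/anti-Ang2 tumours, 8.17, 7.62 and 8.21 in TK/IgG tumours and 8.02, 7.90 and 7.61 in WT/IgG tumours. Across the 11 genes of this role the median difference was -0.02 for TK/anti-Ang2 minus TK/IgG (5 of 11 above 0), -0.02 for TK/anti-Ang2 minus WT/IgG (4 of 11) and -0.10 for TK/IgG minus WT/IgG (4 of 11). The other helicase subunits *Mcm4*, *Mcm6* and *Mcm7*, the licensing factor *Cdt1* and the helicase cofactor *Cdc45* ranged from -0.28 to 0.10 over these comparisons, and their groups overlapped in all of them.

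*Dtl* and *Pcna* stood at the ends of this role in the comparison with TK/IgG. *Dtl* encodes the substrate receptor of the ubiquitin ligase that removes CDT1 on loaded PCNA in S phase. It was detected on the 3 TK/anti-Ang2 arrays and on none of the other 6, with 5.39, 5.25 and 5.30 in TK/anti-Ang2 tumours, 4.69, 4.87 and 4.69 in TK/IgG tumours and 4.87, 4.93 and 4.90 in WT/IgG tumours. The difference was 0.56 (SE 0.13, unadjusted p = 0.00179, limma adjusted p = 0.987) against TK/IgG and 0.41 (SE 0.13, unadjusted p = 0.0106, limma adjusted p = 0.712) against WT/IgG, a signal at least 1.20-fold higher in each case by the bound described above. Under other processing the *Dtl* difference was as small as 0.16 against TK/IgG and 0.11 against WT/IgG. It passed the filter only through the group where it was high, had 1 passing probe and remained near the background in all groups.

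*Pcna*, the sliding clamp of the replication fork, pointed the other way. Its signal was 5.78, 5.61 and 6.06 in TK/anti-Ang2 tumours, 6.61, 6.08 and 6.31 in TK/IgG tumours and 6.49, 6.05 and 6.13 in WT/IgG tumours, so that TK/anti-Ang2 lay below TK/IgG on every array and overlapped with WT/IgG. It differed by -0.51 (SE 0.20, unadjusted p = 0.0300, limma adjusted p = 0.987) against TK/IgG and by -0.41 (SE 0.20, limma adjusted p = 0.712) against WT/IgG. Its probe was dim. Non-overlap in TK/anti-Ang2 minus TK/IgG held for 1 member upward (*Dtl*) and 2 downward (*Npat*, *Pcna*), beside 2.97% and 4.33% of all genes.

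**Figure D3:**
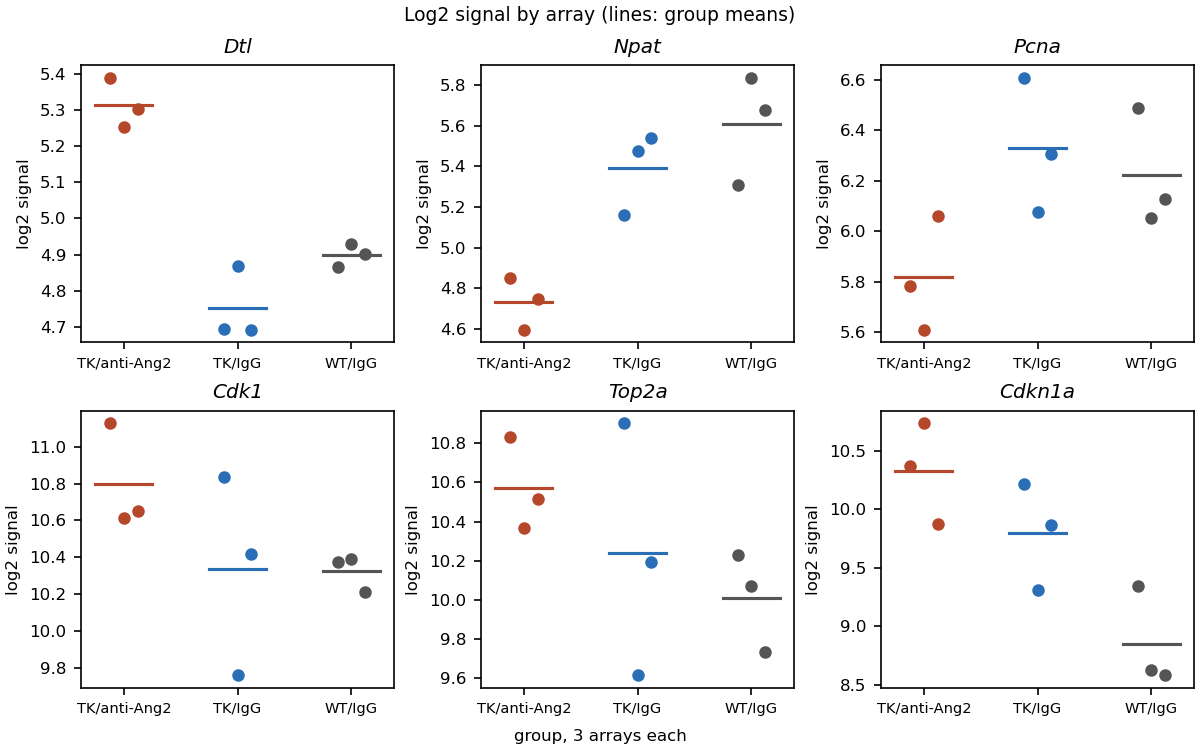
Log2 signal of *Dtl*, *Npat*, *Pcna*, *Cdk1*, *Top2a* and the cell cycle inhibitor gene *Cdkn1a* on each array (points, the brightest probe of each gene), with group means (lines). The axes differ between panels and do not start at 0. *Dtl* and *Npat* separate TK/anti-Ang2 arrays from both IgG groups in opposite directions, while *Cdk1* and *Top2a* separate them from WT/IgG only.

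The 4 genes of deoxynucleotide supply had small positive differences in TK/anti-Ang2 tumours, with medians of 0.25 against TK/IgG and 0.19 against WT/IgG and all 4 above 0 in each. *Rrm2*, the regulated subunit of ribonucleotide reductase, had 9.11, 8.66 and 8.61 in TK/anti-Ang2 tumours, 8.59, 8.16 and 8.75 in TK/IgG tumours and 8.66, 8.85 and 8.01 in WT/IgG tumours. *Tk1*, the cellular thymidine kinase and not the viral transgene, had 10.54, 10.33 and 10.31 in TK/anti-Ang2 tumours, 10.58, 9.72 and 10.26 in TK/IgG tumours and 10.33, 10.60 and 10.02 in WT/IgG tumours. *Rrm2* was lowest on WT/IgG replicate 3 and *Tk1* on TK/IgG replicate 2, and their groups overlapped. Between TK/anti-Ang2 and TK/IgG they differed by 0.29 (SE 0.26) and 0.20 (SE 0.24), each with a limma adjusted p of 0.987. *Tyms*, the thymidylate synthase gene, and *Rrm1*, the large reductase subunit, differed by 0.39 (SE 0.27) and 0.18 (SE 0.26). For *Rrm2*, a second probe on all 9 arrays had the opposite sign in both TK/anti-Ang2 comparisons. Single arrays also mattered. Without TK/IgG replicate 2 the differences against TK/IgG were -0.03 for *Tk1* and 0.13 for *Rrm2*. Without WT/IgG replicate 3 those against WT/IgG were -0.07 and 0.04.

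Of the genes of mitotic entry, each read by its brightest probe, *Cdk1* had the largest differences in TK/anti-Ang2 tumours. *Cdk1*, the kinase that drives entry into mitosis, had a log2 signal of 11.13, 10.61 and 10.65 in TK/anti-Ang2 tumours, 10.84, 9.76 and 10.42 in TK/IgG tumours and 10.37, 10.39 and 10.21 in WT/IgG tumours. All 3 TK/anti-Ang2 arrays exceeded the WT/IgG arrays, and the spread in TK/IgG covered both. It differed by 0.47 (SE 0.27, limma adjusted p = 0.731) against WT/IgG and by 0.46 (SE 0.27, limma adjusted p = 0.987) against TK/IgG. The difference from TK/IgG was 0.17 without TK/IgG replicate 2 and 0.71 without TK/IgG replicate 1. Averaged with its other probes, which were detected on 4 arrays and on 1 array, *Cdk1* differed by 0.03 against WT/IgG and by 0.20 against TK/IgG.

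The polo kinase gene *Plk1* had 10.26, 9.64 and 9.88 in TK/anti-Ang2 tumours, 9.999, 9.45 and 9.75 in TK/IgG tumours and 9.79, 9.81 and 9.56 in WT/IgG tumours. *Aurka*, the centrosomal Aurora kinase, had 9.88, 9.43 and 9.56 in TK/anti-Ang2 tumours, 9.63, 9.01 and 9.58 in TK/IgG tumours and 9.28, 9.53 and 9.09 in WT/IgG tumours. *Foxm1*, the transcription factor of the mitotic wave, had 7.95, 7.54 and 7.98 in TK/anti-Ang2 tumours, 8.26, 7.52 and 7.42 in TK/IgG tumours and 7.92, 8.28 and 7.68 in WT/IgG tumours. The groups overlapped in all 3 genes, with TK/IgG replicate 2 the lowest array for *Plk1* and *Aurka* and TK/IgG replicate 3 for *Foxm1*. Against TK/IgG they differed by 0.19, 0.21 and 0.09, with SE of 0.20, 0.22 and 0.26 and a limma adjusted p of 0.987, 0.987 and 0.988. *Aurkb*, the Aurora kinase of the chromosomal passenger complex, differed by 0.33 (SE 0.28) against TK/IgG and 0.33 (SE 0.28) against WT/IgG. *Ccna2*, cyclin A2, was detected on 1 array, a WT/IgG one, and lay between 4.58 and 5.12 on all 9, so no fold is given.

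For genes of the spindle checkpoint and the anaphase promoting complex the groups overlapped. *Bub1b*, a checkpoint kinase-like protein, differed by 0.20 (SE 0.28) in TK/anti-Ang2 minus TK/IgG, and *Mad2l1*, which inhibits CDC20 until chromosomes are attached, by 0.28 (SE 0.34). *Mad2l1* had 10.24, 9.70 and 9.69 in TK/anti-Ang2 tumours, 10.19, 8.79 and 9.80 in TK/IgG tumours and 9.76, 9.63 and 9.20 in WT/IgG tumours. One array sets this spread, since TK/IgG replicate 2 lay below all others. *Cdc20*, the activator of the complex, had 10.89, 10.60 and 10.68 in TK/anti-Ang2 tumours, 10.65, 10.27 and 10.84 in TK/IgG tumours and 10.68, 11.05 and 10.64 in WT/IgG tumours and differed by 0.14 (SE 0.19). Its 4 probes detected on all 9 arrays gave 0.14, 0.43, 0.06 and 0.85 against TK/IgG and -0.06, 0.25, -0.07 and 0.79 against WT/IgG, and only the last and dimmest of them had an unadjusted p below 0.05 (0.0193 and 0.0265). *Ube2c*, the complex's ubiquitin-conjugating enzyme, was detected on 2 arrays and ranged from 4.49 to 5.23.

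Genes of chromosome and spindle structure differed little against the spread between arrays. *Top2a*, the topoisomerase that untangles sister chromatids, had 10.83, 10.37 and 10.52 in TK/anti-Ang2 tumours, 10.90, 9.62 and 10.19 in TK/IgG tumours and 10.23, 10.07 and 9.73 in WT/IgG tumours. The TK/anti-Ang2 arrays lay above the WT/IgG arrays, and TK/IgG spanned both. The difference against WT/IgG was 0.56 (SE 0.30, limma adjusted p = 0.719), but a second probe of *Top2a*, also detected on all 9 arrays, gave -0.32, and the same probes gave 0.33 and -0.24 against TK/IgG, so its direction is not settled. *Cenpa*, the centromeric histone, had 13.06, 12.83 and 12.75 in TK/anti-Ang2 tumours, 12.81, 12.21 and 12.72 in TK/IgG tumours and 12.83, 12.78 and 12.64 in WT/IgG tumours and differed by 0.30 (SE 0.19, limma adjusted p = 0.987) against TK/IgG. *Birc5*, which encodes survivin, and the spindle genes *Kif11* and *Tpx2* differed by 0.21, 0.13 and 0.02 in the same comparison, with SE of 0.24, 0.37 and 0.35. Groups did not overlap in TK/anti-Ang2 minus WT/IgG for 3 members on the higher side (*Dtl*, *Cdk1*, *Top2a*) and 2 on the lower (*Npat*, *E2f1*), beside 5.01% and 7.27% of all genes.

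Several genes were read by more than 1 probe. Of 14 members with at least a pair of probes detected on all 9 arrays, the probes disagreed in direction for 3 in TK/anti-Ang2 minus TK/IgG (*Mcm6*, *Rrm2*, *Top2a*), for 4 in TK/anti-Ang2 minus WT/IgG (*Bub1b*, *Cdc20*, *Rrm2*, *Top2a*) and for 7 in TK/IgG minus WT/IgG.

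**Figure D4:**
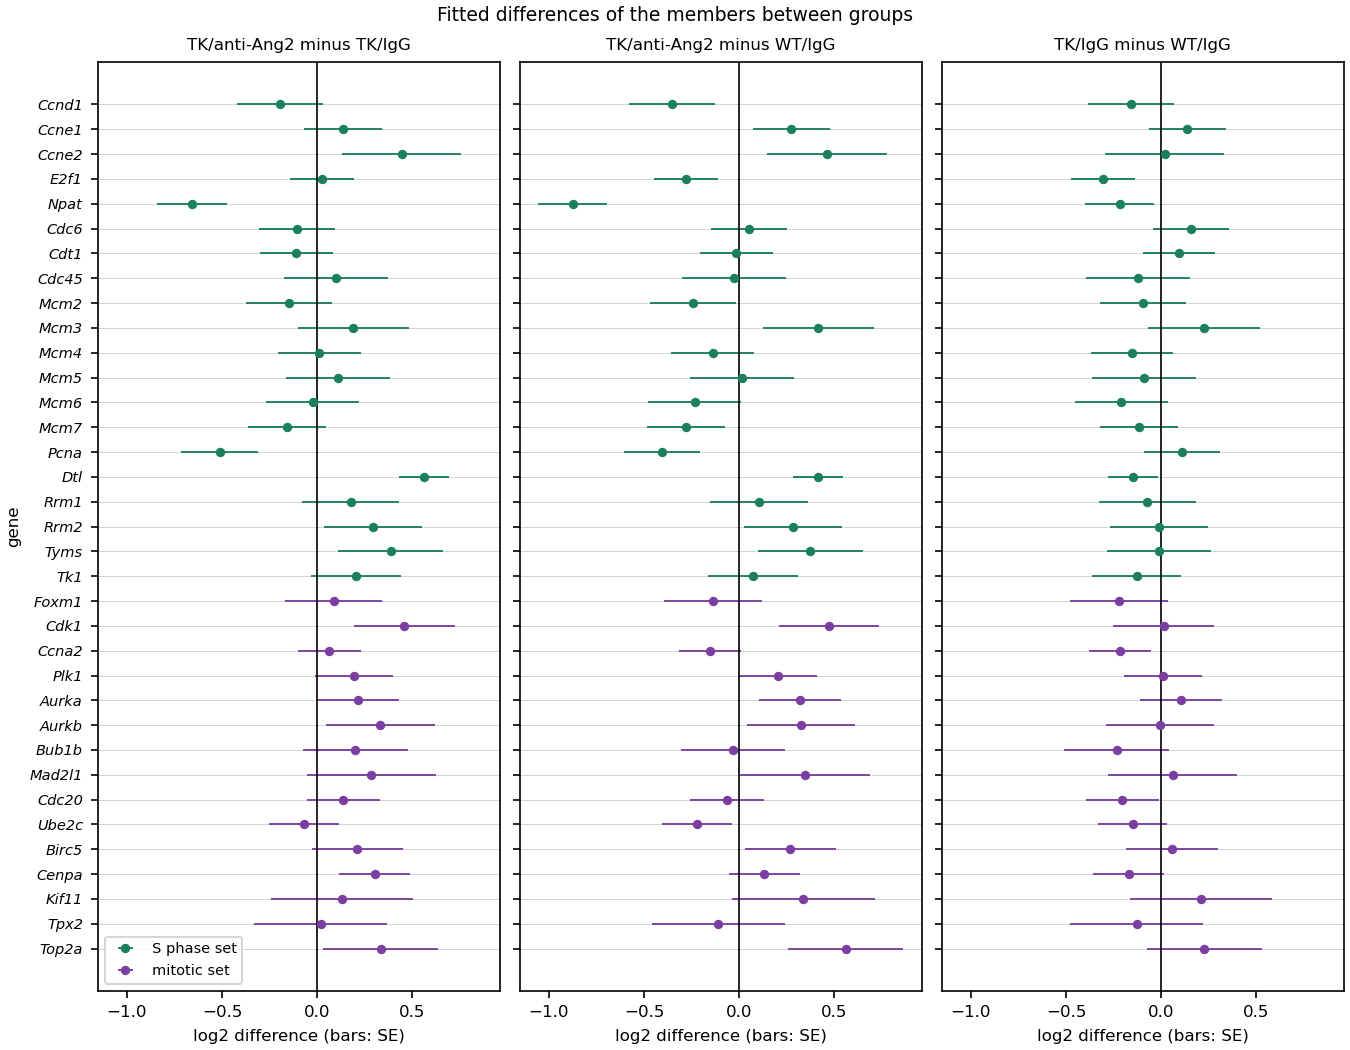
Fitted log2 differences of the 35 members in the 3 comparisons, S phase set above and mitotic set below, with bars of 1 standard error. Points of the mitotic set lie right of 0 for 14 of 15 genes in the left panel, and *Npat* lies farthest left in the first 2 panels (-0.66 and -0.88).

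Other genes of the cycle gave a wider view. Of 34 further S phase genes 29 passed the detection filter, and of 38 further mitotic genes 33 passed, with 0 called in any comparison. The further mitotic genes had, in TK/anti-Ang2 minus TK/IgG, a median of 0.10 (25 of 33 above 0) and the further S phase genes 0.00 (14 of 29). Against WT/IgG these were 0.03 (19 of 33) and -0.12 (11 of 29), and for TK/IgG minus WT/IgG -0.07 (15 of 33) and -0.11 (8 of 29). The mean of both lists was again lowest on TK/IgG replicate 2, at 7.21 for mitotic and 8.21 for S phase genes. Of the genes named by smallest p, *Orc1*, an origin recognition subunit, differed by 0.38 (SE 0.21) and *E2f3*, an E2F activator, by 0.36 (SE 0.20) in TK/anti-Ang2 minus TK/IgG, each with a limma adjusted p of 0.987. Averaged over its probes, *E2f3* differed by 0.13. *Ttk*, a checkpoint kinase gene, was detected on 0 of 3 TK/anti-Ang2, 2 of 3 TK/IgG and 2 of 3 WT/IgG arrays. Its signal was at least 1.28-fold lower in TK/anti-Ang2 than in WT/IgG tumours by the bound described above, and the difference between TK/IgG and WT/IgG was -0.47 (SE 0.20). Under other processing the *Ttk* difference between TK/anti-Ang2 and WT/IgG was as small as -0.22. Like *Npat*, *Ttk* passed the detection filter only through the groups where it was high. *Dut*, which removes dUTP, differed by -0.44 (SE 0.16) in TK/anti-Ang2 minus WT/IgG, and *Cdc25b*, a phosphatase that activates CDK1, by -0.32 (SE 0.15) in TK/IgG minus WT/IgG. The limma adjusted p was 0.712 for *Ttk* and *Dut* in the comparison of TK/anti-Ang2 with WT/IgG.

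Among 22 genes that restrain the cycle, of which 19 passed, *Cdkn1a* was the one that departed most from WT/IgG. It encodes p21, an inhibitor of cyclin-dependent kinases and a target of p53. Its log2 signal was 10.37, 10.73 and 9.88 in TK/anti-Ang2 tumours, 10.21, 9.31 and 9.86 in TK/IgG tumours and 9.34, 8.62 and 8.58 in WT/IgG tumours, so that every TK/anti-Ang2 array lay above every WT/IgG array and 1 TK/IgG array fell just below the highest WT/IgG one. The difference was 1.48 (SE 0.31, unadjusted p = 0.000985, limma adjusted p = 0.712) for TK/anti-Ang2 and 0.95 (SE 0.31, unadjusted p = 0.0136, limma adjusted p = 0.9997) for TK/IgG against WT/IgG, and 0.53 (SE 0.31) between TK/anti-Ang2 and TK/IgG. Of the 19, 2 were higher at a limma unadjusted p below 0.05 in TK/anti-Ang2 minus WT/IgG (beside 2.75% of all genes). In TK/IgG minus WT/IgG 1 was higher (beside 1.25%), and 0 were lower in either. Non-overlap toward higher values in TK/anti-Ang2 minus WT/IgG held for 5.01% of all genes. The list as a whole had medians of -0.01, 0.02 and 0.01 in TK/anti-Ang2 minus TK/IgG, TK/anti-Ang2 minus WT/IgG and TK/IgG minus WT/IgG.

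The ablation experiment had 1 array a group, so its differences have no replicate check and no p. In the early pair no member passed 2-fold either way, beside 0.947% of all genes higher and 0.144% lower in ablation. The median log2 difference was 0.12 for the mitotic set (9 of 12 above 0) and 0.05 for the S phase set (10 of 18), beside 48.2% of all genes and a median of -0.01. The mitotic median was 0.03 without the detection filter, and the S phase median was -0.01 with the mean of each gene's detected probes. Past 1.5-fold were *Mad2l1* and *Cdc6*, both higher in ablation, as were 3.25% of all genes, and no member was lower by that much, against 1.56%.

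*Mad2l1* had a log2 signal of 9.61 in early ablation and 8.88 in early control, a difference of 0.73. *Cdc6* had 7.95 in early ablation and 7.33 in early control, a difference of 0.61. *Cdk1* followed with 9.56 in early ablation and 9.16 in early control, a difference of 0.40. These 3 genes and *Mcm4*, at a difference of 0.40, were the members with the largest positive values. On the other side were *Mcm3* (-0.48), *Kif11* (-0.47), *Tpx2* (-0.15) and *Mcm2* (-0.15). Genes of mitotic entry had a median of 0.31 and all 4 measured were above 0, while the 5 genes of chromosome and spindle structure had a median of -0.13, with 3 below 0.

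In the late pair the set medians lay on opposite sides of 0. The mitotic set had a median of 0.11 with 9 of 12 above 0 and the S phase set of -0.12 with 6 of 18, beside 50.3% of all genes and a median of 0.00. Without the detection filter the mitotic median was 0.01, and the S phase median ranged from -0.17 to -0.10 over the alternatives. The S phase mean minus the mitotic mean was -0.53 in late ablation and -0.27 in late control, and -0.28 in early ablation and -0.23 in early control. No member passed 2-fold, beside 0.391% of all genes higher and 0.669% lower, and none passed 1.5-fold, beside 1.72% and 2.24%.

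*Cdc20* had 10.54 in late ablation and 10.02 in late control, a difference of 0.52. *Plk1* had 10.09 in late ablation and 9.66 in late control, a difference of 0.43. With *Cenpa* (0.28) and *Bub1b* (0.28) they were the highest in late ablation, and all 4 are mitotic genes. *Mcm5* had 10.52 in late ablation and 10.92 in late control, a difference of -0.40. *Cdt1* (-0.35), *Cdc6* (-0.34) and *Ccne1* (-0.31) were next to it at the low end, and all 4 are S phase genes. The largest of the mitotic differences depended on the probe, since the mean of the detected *Cdc20* probes gave 0.10. Over the 10 genes of origin licensing and the fork the late median was -0.17, with 2 above 0, and the early median 0.12, with 6 above 0.

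**Figure D5:**
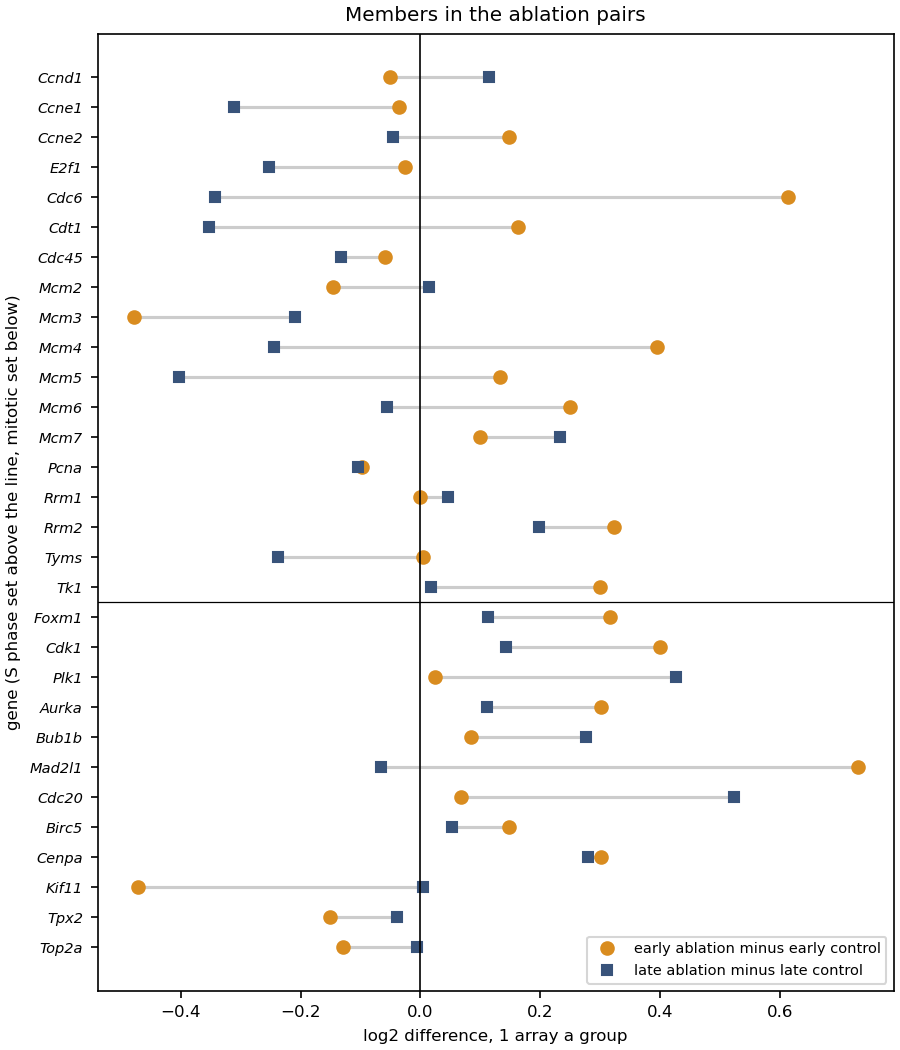
Log2 differences of the 30 members that passed on the 4 arrays, early ablation minus early control (circles) and late ablation minus late control (squares), S phase set above the line and mitotic set below. In the late pair 9 of 12 mitotic and 6 of 18 S phase genes lie right of 0, and *Cdc6* lies on opposite sides of 0 in the pairs (0.61 and -0.34).

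The further genes did not follow this division in the late pair. The 23 further S phase genes that passed had a late median of 0.08 (14 above 0) and the 23 further mitotic genes of 0.16 (18 above 0). In the early pair these were 0.04 (13 above 0) and 0.08 (16 above 0). Stromal markers also differed within the late pair. The mean log2 signal of 10 of 10 fibroblast markers was 7.52 in late ablation and 9.05 in late control, that of 10 of 12 pericyte and mural cell markers 7.17 and 7.60, that of 11 of 12 endothelial markers 7.25 and 7.87, and that of 9 of 10 tumour epithelial markers 9.99 and 9.72. For 9 of 10 neutrophil markers it was 8.57 in late ablation and 7.81 in late control, and for 6 of 8 mast cell markers 7.46 and 6.34. In the early pair the means were 8.64 in ablation and 8.53 in control for fibroblast, 7.79 and 7.42 for pericyte and mural cell, 7.84 and 7.96 for endothelial and 9.77 and 9.70 for epithelial markers, and 10 of 10 skeletal muscle markers were at 9.51 and 6.61. Neutrophil and mast cell markers were higher in early ablation too. Their means were 9.04 in ablation and 8.06 in control for neutrophil and 7.50 and 6.81 for mast cell markers. The early pericyte and mural cell means were swayed by the highest gene, at a log2 difference of 3.23. The median difference of that list was 0.05, with 7 of 10 above 0. The part of all these markers in the members' values was not tested.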

How the data were processed

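Per the labels' protocols, biotinylated cRNA was made from total RNA of 4T1 tumours for Illumina bead arrays. Groups were taken from the sample titles. The deposited tables hold, per the file headers, an un-normalised linear intensity and a detection p-value per probe on every array. GenomeStudio appears in the submitters' processing notes without a version. The authors' processed intensity values were a linear function of the deposited signal on each array (largest residual 0.109). The larger file has 6 columns, of 3 arrays, that match no sample here and were left out. In the smaller file the late control's detection column repeats its signal, so a probe counted as detected there when within the top 42.6% of signals.

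From these, log2 signals were computed with limma 3.58.1 in R 4.3.3. The 9 arrays were background-corrected and quantile-normalised by neqc (offset 16), and the 4 arrays by normexp (offset 50) and quantile normalisation, separately. Each gene was represented by its brightest probe detected on at least 1 array. Groups of 3 were compared by lmFit and eBayes over all 9 arrays with Benjamini-Hochberg adjustment, and the fit was tested on simulated data. Pairs of 1 array were described by differences, with 2-fold and 1.5-fold as limits. RefSeq promoter windows were searched for short words. Alternatives changed the background correction, the normalisation, the source of values, the detection filter, the choice of probe, the groups fitted, array weights, the variance trend and a replicate block, and left out each array.

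The members and lists were chosen with earlier results of these data known. Values on every array were given for 18 listed members (2 of them without a probe), for the 3 members with the smallest p in each direction per comparison, for the 4 largest ratios each way per pair, and for 3 genes of the other cell cycle lists per comparison; some of these are given by difference only.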

Additional observations from a re-analysis of the deposited data

Results flagged for a closer look

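*Cdc6*, which loads the MCM helicase onto replication origins, had differences of opposite sign in the ablation pairs. It was higher by 0.613 (log2) in early ablation, at 7.95 in ablation and 7.33 in control. In the late pair the difference was -0.343, at 7.43 in ablation and 7.77 in control. Each exceeds 0.259, the median SD of 1 array within groups over all genes of the antibody experiment. That is a loose measure, since a difference between a pair of arrays spreads more than 1 array. It also comes from another platform and another background correction. In the antibody experiment the SD of *Cdc6* itself was 0.16 in TK/anti-Ang2, 0.33 in TK/IgG and 0.21 in WT/IgG tumours. *Cdc6* was 1 of 30 members with opposite signs past 0.259, and 3.85% of the 9714 genes showed the same. With 1 array in each group, the difference between the pairs was not tested.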

How the results depend on the processing

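No member passed an adjusted p of 0.05 under any alternative listed here. In TK/anti-Ang2 minus WT/IgG, 1 gene was called with cyclic loess and 1 with array weights, *Slc24a3* in both (1.60 and 1.46, limma adjusted p = 0.0455 and 0.0470, against 0.0870 as reported), which is no member and was named after its value was seen. With single arrays left out, 0 genes were called in any comparison. For TK/IgG minus WT/IgG the S phase median ranged from -0.17 to 0.13 over the arrays left out, and reached 0.13 without TK/IgG replicate 2. In TK/anti-Ang2 minus TK/IgG the S phase median ranged from -0.14 to 0.16 and the mitotic median from -0.02 to 0.38. The set medians of the ablation pairs ranged from -0.01 to 0.08 (S phase) and 0.03 to 0.16 (mitotic) in the early pair, and from -0.17 to -0.10 and 0.01 to 0.12 in the late pair. The early pair had 106 genes past 2-fold, and 62 when detection on all 4 arrays was required.

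Counts at an unadjusted p moved more. In TK/anti-Ang2 minus TK/IgG, 425 became 687 without the detection filter, 884 with array weights and 1145 without TK/anti-Ang2 replicate 3. In TK/anti-Ang2 minus WT/IgG, 885 became 1751 with array weights, 574 when TK/anti-Ang2 replicate 1 was left out, 1606 for its replicate 3, and 561 and 534 for WT/IgG replicates 2 and 3. In TK/IgG minus WT/IgG, 386 became 658 without the filter and 250 without WT/IgG replicate 2. The cause was not tested. As the mean of detected probes, the early *Rrm2* difference was -0.05 and the late *Tk1* difference 0.34.

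Groups share replicate numbers, and the labels do not say whether these pair the samples. Deviations were correlated above 0.1 in 3 of 9 same-numbered pairs (-0.16 to 0.36). The highest values, 0.36 and 0.33, were among them, so this check cannot exclude shared handling of some replicates. The main fit treated the samples as unpaired. With the replicate number as a block, 0 genes were called in each comparison, the counts at an unadjusted p were 482, 947 and 426, and medians were unchanged (0.06 and 0.20 in TK/anti-Ang2 minus TK/IgG for the S phase and mitotic sets). The number of arrays limits the precision, and *Dtl*, *Npat*, *Ccna2* and *Ube2c* lay close to the background.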
